A study of Mus musculus with 14 samples.

Results

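The 10 genes described here encode parts of the actin cytoskeleton and serum response factor, the transcription factor that drives many of them. They are the cytoplasmic actins Actb and Actg1, the contractile genes Acta2 and Tagln, the tropomyosins Tpm1 and Tpm4, the non-muscle myosin heavy chain Myh9, the adhesion and crosslinking proteins Vcl and Flna, and Srf itself. All 10 were found among the 17656 genes measured in the livers of 14 mice. They were chosen by name, after earlier results of these data had shown Actg1 and Tpm1 higher in knockout than in wild type livers after ConA. The difference between these 2 groups is therefore a description here and carries no test for these 10 genes.

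ConA (concanavalin A) is a plant lectin that activates T cells and causes an acute hepatitis when injected into a vein. Livers were taken 8 h after injection from 4 groups of male mice on the C57BL/6 background. The WT saline group held 3 wild type mice, the KO saline group 3 Ythdf1-/- mice, the WT ConA group 4 wild type mice and the KO ConA group 4 Ythdf1-/- mice, with ConA given at 8 mg/kg. YTHDF1 is a reader of N6-methyladenosine marks on RNA, and the Ythdf1-/- line carries a CRISPR/Cas9 deletion of exon 3 in every cell of the body. The methods give an age of 6 to 10 weeks for the mice of the study, with no age for each of these 14.

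Actin filaments grow from the pool of actin monomers, and the cytoplasmic beta and gamma actins encoded by Actb and Actg1 form the filaments under the membrane of nearly every cell. Tropomyosins coat the filaments, myosin pulls on them, filamin crosslinks them and vinculin ties them to adhesion sites. SRF binds the CArG box and works with 2 kinds of cofactor. MRTF cofactors are held by free actin monomers and act on cytoskeletal genes, while the ternary complex factors (Elk1, Elk3 and Elk4) act downstream of ERK on immediate early genes. In liver, Acta2 and Tagln mark smooth muscle around vessels and activated stellate cells.

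The values are TPM, a relative abundance scaled by transcript length and library total, so that levels can be set side by side between genes. The number of reads per library is unknown, so the error of a value is the spread between mice only. Between 2230 and 2701 genes were listed at 0 in a library. The summed level of 6 hepatocyte markers was 102600 to 123800 TPM in WT saline and 97130 to 117700 in KO saline, and after ConA it was 52890 to 75960 in WT and 47300 to 60030 in KO. Alb was the largest part, with 87030 of the 123800 TPM in WT saline replicate 1. With ConA, 4 of the 6 markers were lower without overlap in each genotype. The mean was higher for 1 in WT and 2 in KO. One of these, Hnf4a, had 136 to 160 TPM in KO saline and 169 to 233 in KO ConA. Ythdf1 itself stood at 12.03 to 13.9 TPM in the WT saline mice and 18.4 to 20.8 in the KO saline mice, and after ConA 18.7 to 25.6 in WT and 15.5 to 26.2 in KO. Exon 3 holds 80 of the 3184 bases (2.51%) of the transcript with 5 exons, so a TPM over the whole transcript is no check of the deletion. The saline groups did not overlap for Ythdf1, with KO the higher, and the cause was not tested. WT saline replicates 2 and 3 were nearly alike. Over the 100 genes that varied most in KO saline, they had a median absolute log2 difference of 0.116, where the remaining pairs of mice of 1 group had 0.244 to 1.81. Without read counts it could not be tested whether they are 1 library, and the values with both averaged are given where they change a call. In bulk liver, fewer cells of a type and less RNA of its markers per cell cannot be told apart.

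Some of the 10 genes share reads with other genes. Of the 50-base stretches of the longest coding transcript, the read length used, 56.7% for Actg1, 48.3% for Tagln, 39.2% for Vcl, 16.1% for Tpm4 and 14.2% for Actb also occurred in a transcript of another gene, on either strand. In Actg1, Tagln and Tpm4 the gene sharing most was a predicted gene or pseudogene that is not among the genes of the files, and in Vcl it was the neighbouring Ap3m1. Actb and Actg1 had 30 such stretches in common. The shares were 0.352% for Acta2 and 1.12% for Myh9, and Tpm1, Flna and Srf shared none. The levels of Actg1, Tagln and Vcl are the least certain for this reason.

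The RefSeq promoter table (GRCm38.p6) held a window from 250 bases before to 50 bases after the start of 8 of the 10 genes, all but Actb and Tagln. The stretches with a CArG box, an A- and T-rich core between CC and GG, are shown because SRF binds that motif. The exact box was searched for, and being palindromic as a pattern it is the same search on both strands. It was present in 3 of the 8 windows, and no letters of an exact box were found in the windows of Acta2, Tpm1, Tpm4, Flna and Myh9. Of all 32851 windows of the table, 535 (1.63%) held a box. The capitals mark the boxes, and each stretch ends before the transcript start that the table uses. For Srf that start lies inside the gene as annotated, chr17:46546838-46558267 on the minus strand, whose first base is further upstream.
Actg1, chr11:120348556-120348605, minus strand: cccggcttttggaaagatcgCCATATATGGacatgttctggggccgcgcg
Vcl, chr14:20929151-20929200, plus strand: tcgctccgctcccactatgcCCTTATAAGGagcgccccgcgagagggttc
Srf, chr17:46556195-46556264, minus strand: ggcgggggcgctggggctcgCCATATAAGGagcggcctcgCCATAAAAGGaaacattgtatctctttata
The box began 90 bases before the start in Actg1 and 227 bases before it in Vcl, and Srf held boxes at 82 and 62 bases. A match describes these letters and is not evidence of binding.

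**Figure D1:**
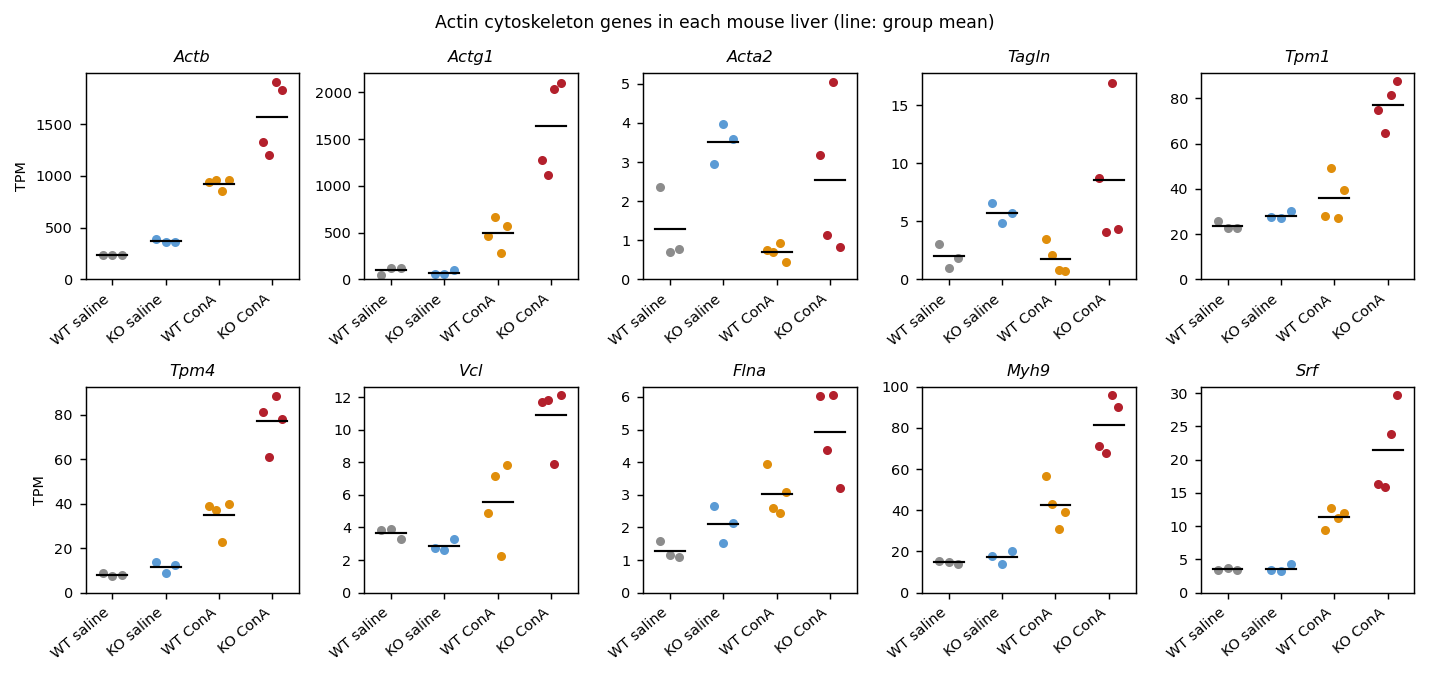
TPM of each of the 10 genes (vertical axis, starting at 0, a scale of its own for each gene) in the 14 mice by group, with 1 point per mouse and a line at the group mean. Actb, Actg1, Tpm1, Tpm4, Flna, Myh9 and Srf lie higher in every ConA mouse than in any saline mouse of the same genotype. Vcl does so in KO only, and Acta2 and Tagln do not follow ConA in either genotype.

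The question of the first comparison was how ConA changed these genes in wild type liver. Of the 9 genes that passed the filter on low values (TPM of 1 or more in at least 3 libraries), 6 rose and none fell at a limma adjusted p under 0.05, against 22.0% of all genes tested called higher and 31.0% called lower. In TPM, the WT ConA and WT saline mice did not overlap for 7 of the 10 genes, all of them higher with ConA, against 23.3% of all genes higher and 34.7% lower without overlap. The median log2 difference of the 9 genes was 1.43, against -0.07 over all genes tested. In the knockout, 8 of 10 genes passed the test, all of them higher in KO ConA than in KO saline, against 33.9% of all genes called higher and 30.7% called lower. The same 8 did not overlap between KO ConA and KO saline, against 32.8% of all genes higher and 31.5% lower without overlap. The median over the 10 genes was 1.83, against 0.07 over all genes. The ConA mice of both genotypes had entered the choice of the 10 genes. Their counts in WT and KO are therefore not independent of that choice. Fold changes are differences of group means on the log2(TPM + 1) scale, which understates changes of genes at a few TPM.

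Actb, beta actin, had the highest level of the 10 genes in every group but KO ConA. It stood at 235, 234 and 239.8 TPM in WT saline and at 389, 364 and 362 in KO saline. After ConA it reached 937, 960.0, 850.1 and 959 TPM in WT and 1332, 1205, 1909 and 1832 in KO. The 4 groups did not overlap and were ordered WT saline, KO saline, WT ConA, KO ConA. ConA raised Actb by a log2 change of 1.96 (SE 0.11, limma adjusted p = 1.28e-06) in WT, or 3.92-fold in mean TPM. In KO the change was 2.05 (SE 0.17, limma adjusted p = 1.93e-06), or 4.23-fold.

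Actg1, gamma actin, had the largest response of the 10 genes in both genotypes. Its TPM was 51.6, 120.2 and 120.3 in WT saline and 54.0, 62.3 and 95.3 in KO saline, and these groups overlapped. With ConA it was 469, 668, 284 and 572 in WT and 1281, 1116, 2041 and 2102 in KO, so that the lowest KO ConA mouse exceeded the highest WT ConA mouse. The log2 change with ConA was 2.37 (SE 0.36, limma adjusted p = 0.000451) in WT and 4.50 (SE 0.25, limma adjusted p = 1.38e-07) in KO, which in mean TPM is 5.12-fold and 23.2-fold.

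The balance of the cytoplasmic actins shifted with these values. Actg1 made up 17.99%, 33.9% and 33.4% of the summed Actb and Actg1 TPM in WT saline and 12.2%, 14.6% and 20.9% in KO saline. The share was 33.3%, 41.0%, 25.1% and 37.4% in WT ConA, a range that overlapped with WT saline. In KO ConA it was 49.0%, 48.1%, 51.7% and 53.4%, above every mouse of the other 3 groups. The summed level ran from 287 to 360.1 TPM in WT and 426 to 457 in KO in saline, and with ConA from 1134 to 1628 in WT and 2321 to 3950 in KO. These shares are derived from the 2 genes' own levels and carry no separate test.

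**Figure D2:**
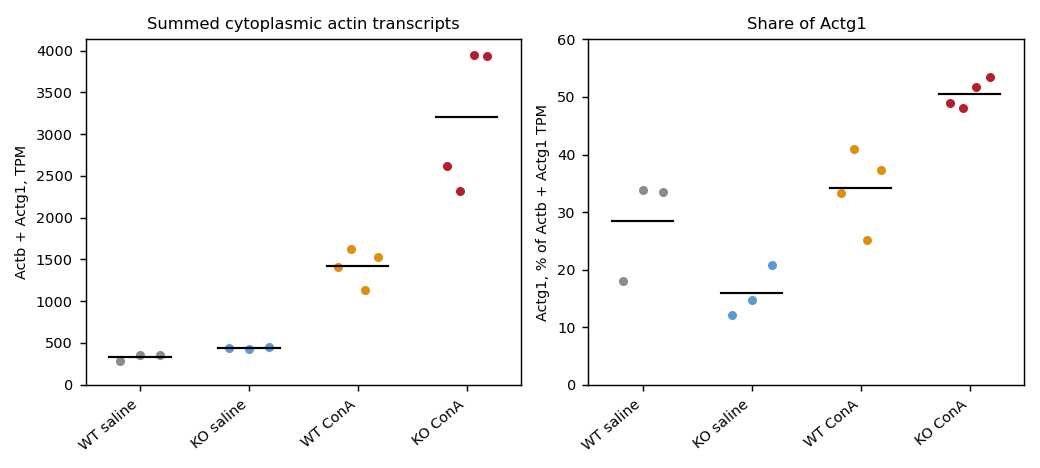
Left, summed TPM of Actb and Actg1, and right, Actg1 as a percent of that sum, in each of the 14 mice by group, with a line at the group mean. The share of Actg1 is 48.1% to 53.4% in the KO ConA mice and at most 41.0% in any other mouse.

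Srf, the transcription factor, was low and alike in both saline groups, with 3.35, 3.71 and 3.43 TPM in WT and 3.34, 3.20 and 4.29 in KO. It was 9.44, 12.7, 11.2 and 12.01 TPM in WT ConA and 16.4, 15.9, 23.9 and 29.7 in KO ConA. With ConA every mouse of either genotype exceeded every saline mouse, and the 2 ConA groups did not overlap, with KO the higher. The log2 change was 1.45 (SE 0.14, limma adjusted p = 3.85e-05) in WT and 2.25 (SE 0.22, limma adjusted p = 6.97e-06) in KO.

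The tropomyosins differed in WT liver. Tpm4, a tropomyosin of non-muscle cells, had 8.80, 7.64 and 8.00 TPM in WT saline, 13.8, 8.90 and 12.5 in KO saline, 39.0, 37.3, 22.9 and 40.1 in WT ConA, and 81.4, 60.8, 88.6 and 78.2 in KO ConA. The 4 groups did not overlap, although the nearest mice of the saline groups had 8.80 and 8.90 TPM. Tpm4 rose by 1.94 (SE 0.20, limma adjusted p = 4.85e-05) in WT and 2.63 (SE 0.17, limma adjusted p = 4.00e-07) in KO on the log2 scale. Tpm1, which has muscle and non-muscle isoforms, had 25.6, 22.9 and 22.8 TPM in WT saline and 28.03, 49.3, 27.3 and 39.3 in WT ConA. Its log2 difference of 0.54 (SE 0.21) in WT had a limma adjusted p of 0.0532. Without WT ConA replicate 3 it was 0.65 with an adjusted p of 0.0183, without WT ConA replicate 1 it was 0.64 with an adjusted p of 0.0368, and over all alternatives the adjusted p ran from 0.0107 to 0.144. In KO, Tpm1 went from 27.4, 26.9 and 30.2 TPM to 74.8, 64.7, 81.6 and 87.8, a rise of 1.42 (SE 0.13, limma adjusted p = 4.38e-06).

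Myh9, the heavy chain of non-muscle myosin IIA, had 15.6, 14.8 and 13.8 TPM in WT saline and 17.6, 14.02 and 20.1 in KO saline. After ConA it had 56.8, 43.1, 30.8 and 39.1 in WT and 71.1, 67.8, 96.0 and 90.4 in KO. No ConA mouse overlapped with a saline mouse, and the 2 ConA groups did not overlap with each other. The log2 rise was 1.43 (SE 0.19, limma adjusted p = 0.000244) in WT and 2.17 (SE 0.17, limma adjusted p = 1.13e-06) in KO.

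Flna, filamin A, rose by about the same log2 amount in both genotypes, 0.82 (SE 0.17, limma adjusted p = 0.00285) in WT and 0.91 (SE 0.22, limma adjusted p = 0.00380) in KO. Its TPM was 1.59, 1.14 and 1.08 in WT saline, 2.67, 1.53 and 2.15 in KO saline, 3.95, 2.60, 2.44 and 3.10 in WT ConA, and 6.04, 4.36, 6.07 and 3.21 in KO ConA. Each neighbouring pair in the order WT saline, KO saline, WT ConA, KO ConA overlapped. Vcl, vinculin, had 3.83, 3.90 and 3.31 TPM in WT saline and 4.91, 7.17, 2.28 and 7.85 in WT ConA, where replicate 3 lay below every saline mouse. Its log2 difference in WT was 0.39 (SE 0.31, limma adjusted p = 0.321), and without WT ConA replicate 3 it was 0.69 with an adjusted p of 0.00691, in a range of 0.00691 to 0.597 over all alternatives. In KO, Vcl went from 2.75, 2.63 and 3.27 TPM to 11.7, 11.8, 7.88 and 12.2, a rise of 1.60 (SE 0.18, limma adjusted p = 1.83e-05). Ap3m1, which shares transcript stretches with Vcl, had 27.8 to 32.1 TPM in KO saline and 14.9 to 31.3 in KO ConA, and its part in the value of Vcl was not tested.

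Acta2 and Tagln, the contractile genes, did not pass the test for ConA in either genotype. Acta2, smooth muscle alpha actin, was under the filter in WT, with 2.36, 0.71 and 0.78 TPM in saline and 0.75, 0.69, 0.93 and 0.44 with ConA. In KO it had 2.94, 3.98 and 3.6 TPM in saline and 3.18, 1.14, 5.04 and 0.83 with ConA, a log2 difference of -0.51 (SE 0.36, limma adjusted p = 0.235). Without KO ConA replicate 3, the highest mouse, the difference was -0.82 with an adjusted p of 0.0277, in a range of 0.0277 to 0.531 over all alternatives. Tagln, transgelin, an actin-binding protein of smooth muscle, had 3.09, 0.97 and 1.86 TPM in WT saline and 3.49, 2.14, 0.79 and 0.75 in WT ConA, a difference of -0.14 (SE 0.36, limma adjusted p = 0.765). In KO it had 6.55, 4.82 and 5.71 TPM in saline and 8.74, 4.05, 17.0 and 4.36 with ConA, a difference of 0.32 (SE 0.38, limma adjusted p = 0.478) that was -0.05 without KO ConA replicate 3. The same KO ConA mice, replicates 1 and 3, were highest for both genes.

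Markers of other cell types moved beside Acta2 and Tagln. The summed TPM of 8 stellate cell and fibroblast markers was 74.6, 18.04 and 19.4 in WT saline. Replicate 1 had the highest sum, Acta2 and Tagln in that group. In KO saline and in WT ConA, the mouse with the highest sum also had the highest Tagln. Acta2 went otherwise there. In KO saline the mouse with the highest sum had the lowest Acta2, and in WT ConA the mouse with the lowest sum had the highest Acta2. In KO ConA replicate 1 had the highest sum and replicate 3 the highest Acta2 and Tagln. The sum was 115, 64.9 and 102 in KO saline, and after ConA it was 25.3 to 72.4 in WT and 56.8 to 113 in KO. The 6 smooth muscle markers, Myh11, Cnn1, Lmod1, Des, Actg2 and Synpo2, summed to 0.76 to 3.45 TPM in WT saline and 5.49 to 6.53 in KO saline, and after ConA to 0.86 to 1.18 in WT and 1.52 to 4.12 in KO. This sum ordered the mice as Acta2 did in WT saline and in KO ConA, but not in KO saline or WT ConA. Synpo2 was at most 0.08 TPM in any mouse and was listed at 0 in some. Mean levels were higher in KO than in WT for 8 of 8 stellate and 6 of 6 smooth muscle markers, both in saline and after ConA. The same held for 6 of 6 cholangiocyte markers at both, for 6 of 6 endothelial markers in saline and 5 of 6 after ConA, and for 5 of 6 T cell markers in saline and 6 of 6 after ConA. It held for 0 of 6 Kupffer cell markers in saline and 5 of 6 after ConA, and for 1 and 5 of 6 neutrophil markers. For platelet markers it was 6 of 6 in saline and 0 of 6 after ConA, and for hepatocyte markers 2 and 3 of 6. The part of these cells in the levels of Acta2 and Tagln was not tested. The summed neutrophil markers were higher with ConA, at 9.54 to 11 TPM over 6 genes in WT saline against 315 to 554 in WT ConA. In KO they had 5.27 to 10.7 TPM without ConA and 410 to 944 TPM with it. The mean was higher for 5 of the 6 in either genotype, and Ly6g went the other way, with 0.57, 4.85 and 5.04 TPM in WT saline and 1.64, 0.18, 0.49 and 0.88 in WT ConA. Their part in the rise of the cytoplasmic actins was not tested. The other lists held 6 markers each. Cholangiocyte markers summed to 46.6 to 57.03 TPM in WT saline against 83.8 to 89.5 in KO saline, Kupffer cell markers to 63.7 to 107 against 27.6 to 60.4, and T cell markers to 0.95 to 1.46 against 2.13 to 2.94, all without overlap. Endothelial markers summed to 13.8 to 22.9 TPM in WT saline and 22.7 to 39.9 in KO saline, and platelet markers to 3.0 to 8.9 and 4.12 to 16.4. After ConA the sums in WT and KO were 18.7 to 32.2 and 36.9 to 56.4 TPM for cholangiocytes, 3.97 to 22.4 and 4.46 to 18.1 for Kupffer cells, 1.76 to 3.59 and 2.59 to 5.72 for T cells, 13.02 to 34.3 and 16.3 to 45.6 for endothelial cells, and 7.51 to 22.1 and 7.21 to 10.8 for platelets. Their part in the differences between the genotypes was not tested.

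**Figure D3:**
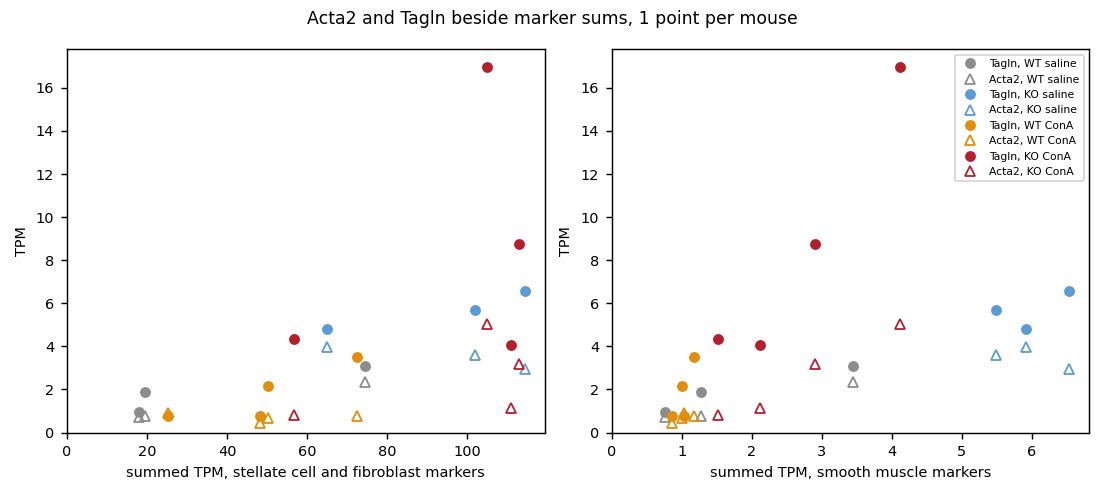
TPM of Tagln (filled circles) and Acta2 (open triangles) against the summed TPM of 8 stellate cell and fibroblast markers (left) and of 6 smooth muscle markers (right), with 1 point of each kind per mouse, coloured by group. KO saline mice lie at 5.49 to 6.53 TPM of smooth muscle markers, to the right of all other mice, and KO ConA replicate 3 has the highest Tagln, 17.0 TPM.

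The comparison of the saline groups asks how the genotypes differed without ConA. Over all genes the median log2 difference between KO and WT was -0.10, so the values below stand above a slightly negative centre. Of the 10 genes, 3 passed the test, all higher in KO saline, against 6.3% of all genes called higher and 12.9% called lower. The groups did not overlap for 5 genes higher in KO (Actb, Acta2, Tagln, Tpm1 and Tpm4) and for 1 lower (Vcl), against 13.0% of all genes higher and 29.2% lower without overlap. The called genes were Actb (0.65, SE 0.08, limma adjusted p = 0.00853), Acta2 (1.05, SE 0.26, limma adjusted p = 0.0339) and Tagln (1.23, SE 0.25, limma adjusted p = 0.0230). All 3 calls ended when WT saline replicates 2 and 3 were averaged, where the limma adjusted p was 0.0701 for Actb, 0.127 for Acta2 and 0.0877 for Tagln, and none of the 10 genes was called, while 3 had an unadjusted p under 0.05. They ended likewise without WT saline replicate 2 (adjusted p of 0.0664, 0.123 and 0.0804) and without WT saline replicate 3 (0.0779, 0.135 and 0.105). The calls over all genes fell too, from 2009 of 10459 in the main fit to 49 of 10675 with both averaged. They were 51 without WT saline replicate 2 and 45 without WT saline replicate 3, so the loss was not particular to these genes. Over all alternatives the adjusted p ran from 0.00543 to 0.0779 for Actb, from 0.00375 to 0.135 for Acta2 and from 0.00821 to 0.146 for Tagln. The call of Acta2 also ended without any 1 of the KO saline replicates 1, 2 and 3 (adjusted p of 0.0737, 0.0870 and 0.0573), and that of Tagln without KO saline replicate 1 (0.0711). The direction held in each of these. Actg1 (-0.40, SE 0.35), Vcl (-0.27), Tpm1 (0.24), Tpm4 (0.46), Flna (0.45), Myh9 (0.20) and Srf (0.03) did not pass. Without WT saline replicate 1, the difference of Actg1 was -0.80 with an adjusted p of 0.0482, in a range of 0.0482 to 0.770 over all alternatives. Tpm4 differed by 0.63 with an adjusted p of 0.0342 without KO saline replicate 2, by 0.57 with 0.0432 after rescaling and by 0.46 with 0.0379 with the replicate block, in a range of 0.0342 to 0.241. Tpm1 had a difference of 0.35 and an adjusted p of 0.0324 after rescaling (range 0.0324 to 0.500), and Flna 0.45 and 0.0427 with the replicate block (range 0.0427 to 0.260).

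After ConA, all 10 genes had a higher mean in KO than in WT. These values were known when the genes were chosen and are given without a test. The differences were 1.73 for Actg1, 1.69 for Tagln, 1.15 for Tpm4, 1.11 for Tpm1, 0.94 for Vcl, 0.94 for Myh9, 0.90 for Acta2, 0.83 for Srf, 0.73 for Actb and 0.54 for Flna. Their median was 0.94, against 0.05 over all genes tested, and it ran from 0.89 to 1.05 when any 1 mouse was left out. For 8 of the 10 genes no KO ConA mouse overlapped with a WT ConA mouse, and Acta2 and Flna overlapped. Of all genes, 6.37% were higher and 4.11% lower without overlap, and 0.342% were called higher and 0.0856% called lower. Nothing is read from the counts of the 10 genes against these shares. The gaps were narrow for Vcl, where the highest WT ConA mouse had 7.85 TPM and the lowest KO ConA mouse 7.88, and wide for Actg1, where these mice had 668 and 1116 TPM. The levels did not spread evenly over mice. WT ConA replicate 3 was the lowest of its group for 7 of the 10 genes, and KO ConA replicate 2 was the lowest of its group for 7.

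**Figure D4:**
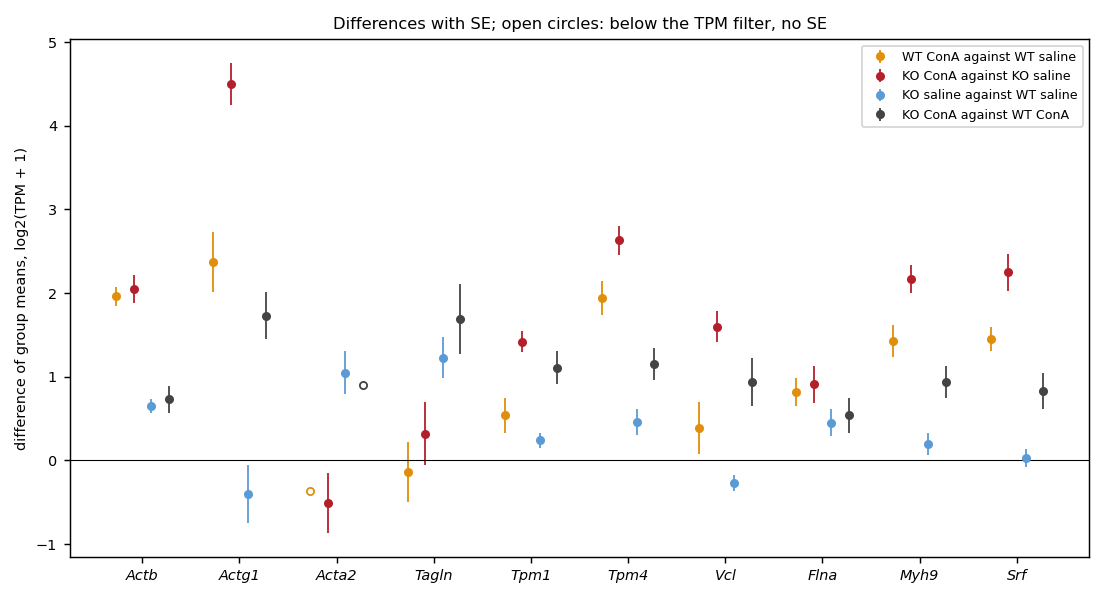
Differences of group means on the log2(TPM + 1) scale (vertical axis) for each of the 10 genes in 4 comparisons, with bars of 1 SE from limma and open circles for values below the TPM filter, which have no SE. The KO response to ConA exceeds the WT response most for Actg1 (4.50 against 2.37) and Vcl (1.60 against 0.39), and the responses of Actb (2.05 against 1.96) and Flna (0.91 against 0.82) nearly coincide.

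The interaction of genotype and ConA, the KO response minus the WT response, was fitted over all 14 mice and is a description for these genes too. Its median over all genes was 0.14 and over the 10 genes 0.71, and after rescaling the libraries to a common centre these were 0.00 and 0.55. The values were 2.13 (SE 0.49) for Actg1, 1.21 (SE 0.38) for Vcl, 0.88 (SE 0.25) for Tpm1, 0.80 (SE 0.27) for Srf, 0.74 (SE 0.27) for Myh9 and 0.69 (SE 0.28) for Tpm4. They were smaller than their SE for Tagln (0.46, SE 0.59), Acta2 (-0.15, SE 0.48), Flna (0.09, SE 0.29) and Actb (0.09, SE 0.20), and those of Flna and Actb turned to -0.02 and -0.09 after rescaling. The actins did not follow 1 pattern. Actb stood 1.57-fold higher in KO than WT mean TPM in saline and 1.69-fold higher after ConA, whereas Actg1 stood at 0.725 of the WT mean in saline and 3.28-fold higher after ConA.

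The order of the 10 genes by mean TPM changed between the groups. In WT saline it began with Actb (237), Actg1 (97.4), Tpm1 (23.8), Myh9 (14.7) and Tpm4 (8.15), and ended with Tagln (1.97), Acta2 (1.28) and Flna (1.27). In KO ConA it began with Actg1 (1635) and Actb (1570), whose mice overlapped, followed by Myh9 (81.3), Tpm4 (77.3) and Tpm1 (77.2), and ended with Flna (4.92) and Acta2 (2.55). KO ConA had the highest mean of the 4 groups for 9 of the 10 genes, and Acta2 had its highest in KO saline.

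Beyond the 10 genes, 125 of 129 listed genes of actin and SRF biology were found in the files, and the other 4 were older symbols of genes already on the lists. In WT, 33 of the 106 tested rose with ConA and 14 fell. In KO, 60 of the 113 tested rose and 17 fell. With WT saline replicates 2 and 3 averaged, 27 rose and 10 fell in WT, and without WT ConA replicate 3, 66 were called there. Calls over all genes moved likewise, from 5704 of 10768 in the main fit to 4620 of 10985 averaged and 7048 of 10692 without WT ConA replicate 3. All numbers below are of limma adjusted p under 0.05, and the background shares are those given above. The lists were made with earlier results of these data known, so their counts beside these shares are a description.

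The SRF cofactors moved unequally. Mrtfa, which encodes an MRTF cofactor, rose by 1.72 (SE 0.15, limma adjusted p = 1.55e-05) in WT and 1.71 (SE 0.17, limma adjusted p = 6.52e-06) in KO, with 0.73 to 1.35 TPM over both saline groups and 4.66 to 6.46 TPM over both ConA groups. Its relative Mrtfb differed by -0.37 in WT and 0.05 in KO and passed in neither. Elk1 rose by 1.25 in KO (SE 0.15, limma adjusted p = 3.05e-05) and by 0.55 in WT (SE 0.17, limma adjusted p = 0.0239). The WT call of Elk1 ended with the replicate block (0.0664), with WT saline replicates 2 and 3 averaged (0.0691) and without any 1 WT mouse other than ConA replicate 3 (0.0522 to 0.0764). Elk3, which can repress SRF targets, fell by 0.95 in KO (SE 0.14, limma adjusted p = 0.000168), and Elk4 rose there by 1.23 (SE 0.16, limma adjusted p = 5.52e-05).

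Among the contractile and cytoskeletal targets of MRTF and SRF, 3 of 17 rose and 5 fell in WT, and 5 of 21 rose and 6 fell in KO. These counts are no larger a share than that of all genes called in the same direction. Tagln2, a transgelin of non-muscle cells, went from 12.8 to 13.5 TPM in WT saline to 49.6 to 70.5 in WT ConA, a rise of 2.12 (SE 0.15, limma adjusted p = 6.69e-06), and rose by 1.59 in KO. Zyx, zyxin of focal adhesions, rose by 1.13 in KO (SE 0.16, limma adjusted p = 0.000121) and by 0.47 in WT (SE 0.15, limma adjusted p = 0.0220). The WT call of Zyx ended with the replicate block (0.104), with WT saline replicates 2 and 3 averaged (0.0740), and without WT saline replicate 1 (0.0610), 2 (0.0597) or 3 (0.0953) or WT ConA replicate 2 (0.0508), in all at a positive difference. Tpm2, the beta tropomyosin of muscle, fell by 2.04 in WT (SE 0.29, limma adjusted p = 0.000316) and by 2.26 in KO (SE 0.40, limma adjusted p = 0.000532), against the rise of Tpm4. Mylk, the smooth muscle myosin light chain kinase, fell by 1.77 in WT and by 2.18 in KO, and the smooth muscle markers Myh11 (-0.78) and Des (-0.91) fell in KO beside the marker sums given above. Mylk, Myh11 and Des were named after their values were seen. Ccn1, a matricellular SRF target, rose by 1.84 in KO (SE 0.43, limma adjusted p = 0.00313), where saline mice held 5.06 to 7.83 TPM and ConA mice 9.89 to 47.7 TPM.

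The immediate early targets of ternary complex factors and SRF were called in KO more widely than in WT. All 6 tested rose with ConA in KO, with 1 of 5 called in WT. Egr1 had 2.71 to 2.89 TPM in KO saline and 26.6 to 175 in KO ConA, a rise of 4.15 (SE 0.54, limma adjusted p = 5.74e-05), and Fos rose there by 3.55 (SE 0.46, limma adjusted p = 5.52e-05). The WT mice had 16.6 to 25.1 TPM of Egr1 in saline and 11.5 to 20.4 with ConA, a difference of -0.19 that did not pass. Part of the contrast lay in the saline mice, where Egr1 was lower in KO than in WT by a log2 difference of -2.45 (SE 0.15, limma adjusted p = 0.000344). Of the 5 targets tested in saline, 0 were higher in KO and 3 were called lower, with a median log2 difference of -0.39. Among all genes, 12.9% were called lower there. With WT saline replicates 2 and 3 averaged, Egr1 was the 1 listed gene still called lower in saline. The interaction itself was called for 4 of the 6 genes, all positive, against 2.64% of all genes called positive. With WT saline replicates 2 and 3 averaged, and without any 1 of WT saline replicates 2 and 3, KO saline replicates 1 and 2 and KO ConA replicate 4, the call of Egr1 was the single one left over all the listed genes. In these settings the calls over all genes fell from 541 to between 22 and 82.

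Genes of actin nucleation and turnover rose in 10 of 32 cases and fell in 3 in WT, and rose in 18 and fell in 4 in KO. Tmsb10, a thymosin that binds actin monomers, rose by 2.47 (SE 0.21, limma adjusted p = 1.77e-05) in WT and 2.18 (SE 0.23, limma adjusted p = 1.43e-05) in KO, and 43.5% of its transcript stretches occur in other genes. Dstn, destrin, which severs filaments, had 119 to 136 TPM in KO saline and 410 to 554 in KO ConA, a rise of 1.91 (SE 0.13, limma adjusted p = 3.92e-07). Capg, which caps filament ends in macrophages and other cells, rose by 1.45 (SE 0.19, limma adjusted p = 0.000181) in WT. Cfl2, a cofilin of muscle, fell by 0.81 (SE 0.23, limma adjusted p = 0.01475) in WT, a call that ended with WT saline replicates 2 and 3 averaged (0.0565) or without either (0.0549 and 0.0572). Coro1b, a coronin, fell by 0.82 (SE 0.13, limma adjusted p = 0.000178) in KO.

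Crosslinking and adhesion genes rose in 9 of 26 cases and fell in 4 in WT, and rose in 13 and fell in 3 in KO. Ezr, ezrin, rose by 1.75 (SE 0.23, limma adjusted p = 0.000208) in WT, while radixin, Rdx, of the same family and known as the main form in hepatocytes, fell by 1.40 (SE 0.25, limma adjusted p = 0.00130) in WT and by 0.92 (SE 0.18, limma adjusted p = 0.000927) in KO. The WT mice ranged over 61.8 to 68.5 TPM of Rdx in saline and 13.5 to 30.6 after ConA. Tes, testin of focal adhesions, rose by 1.63 (SE 0.17, limma adjusted p = 5.60e-05) in WT and 1.96 (SE 0.15, limma adjusted p = 1.31e-06) in KO. Plek, pleckstrin of platelets and leukocytes, rose by 1.70 (SE 0.25, limma adjusted p = 0.000119) in KO.

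Myh14, the heavy chain of non-muscle myosin IIC, fell by 1.39 (SE 0.14, limma adjusted p = 5.07e-05) in WT and by 1.36 (SE 0.19, limma adjusted p = 7.87e-05) in KO, against the rise of Myh9.

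**Figure D5:**
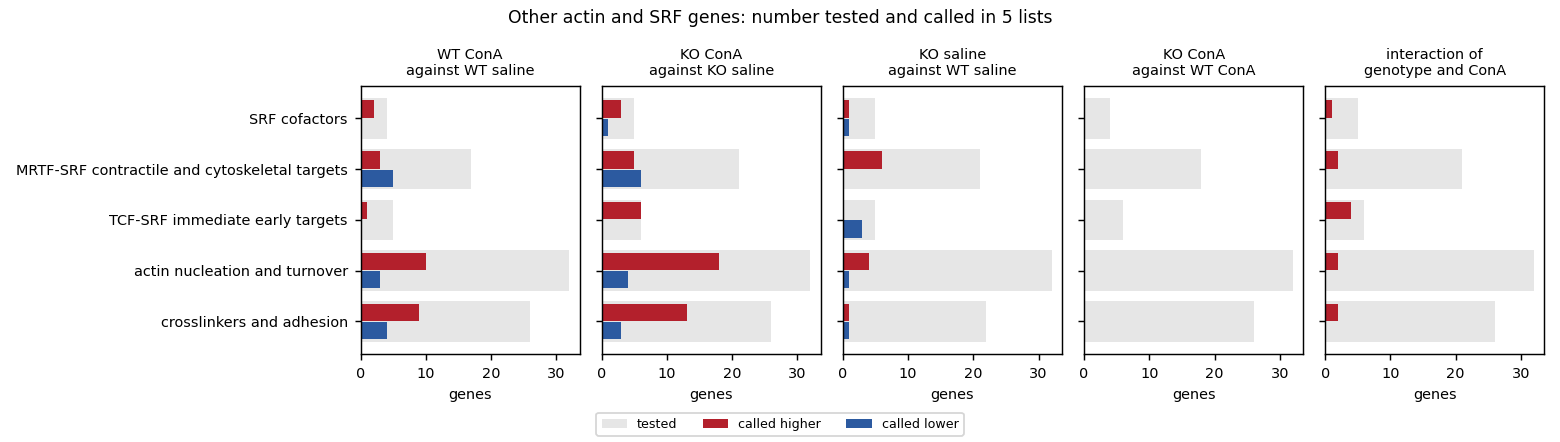
Number of genes tested (grey), called higher (red) and called lower (blue) in 5 lists of other actin and SRF genes, in the 5 comparisons, with the number of genes on the horizontal axis. Of 32 genes of actin nucleation and turnover, the KO response to ConA has 18 higher and 4 lower and the WT response 10 and 3, and KO ConA against WT ConA has no call in these 5 lists, with 34 genes at an unadjusted p under 0.05.

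In saline, 14 of 107 listed genes were called higher in KO and 7 lower, against 6.3% and 12.9% of all genes. After rescaling, which moves the all-gene median from -0.10 to 0.00, the split was 21 higher and 2 lower, and over all genes the share of calls that were higher went from 32.8% to 61.8%. With WT saline replicates 2 and 3 averaged 2 of 108 were left, against 49 of 10675 over all genes. Of the 10 genes named by the rule for this comparison Egr1 stayed called, while the other 9 had an adjusted p of 0.0888 to 0.163. Gsn, gelsolin, which severs and caps filaments, was higher in KO by 1.51 (SE 0.32, limma adjusted p = 0.0255), Ccn2 by 1.33 (SE 0.26, limma adjusted p = 0.0209), Elk3 by 0.65, Sptbn1 by 0.57 and Limk2 by 0.36. Lower in KO beside Egr1 were Elk4 (-0.53), Rnd3 (-0.43), Actr3 (-0.34) and Rdx (-0.31). The adjusted p of these 9 genes was 0.0941 to 0.173 without WT saline replicate 2 and 0.0977 to 0.178 without WT saline replicate 3.

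After ConA, 1 of the 109 listed genes tested was called between the genotypes, and 98 of the 109 had a higher mean in KO, with a median log2 difference of 0.37 against 0.05 over all genes. Because the lists were made with earlier results known, nothing is read from these values against those of all genes. The called gene was Myl12a, a regulatory light chain of non-muscle myosin, with a range of 75.4 to 84.0 TPM after ConA in WT and 113.8 to 179.8 in KO, a difference of 0.84 (SE 0.15, limma adjusted p = 0.0369). The call ended without a filter on low values (0.0876), after rescaling (0.0954) and when any 1 mouse other than KO ConA replicate 2 was left out (0.0563 to 0.111). No listed gene was then called without WT ConA replicate 1, 2, 3 or 4 or KO ConA replicate 1, 3 or 4, with 36 to 48 genes at an unadjusted p under 0.05. Its near copy Myl12b, with 29.6% of the stretches of Myl12a and 11.4% of its own shared with other genes, ranged over 90.5 to 105 TPM after ConA in WT and 71.4 to 91.9 in KO.

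The interaction was called for 12 listed genes in the positive and 1 in the negative direction of 113, against 2.64% and 2.14% of all genes. Here too the lists were made with earlier results known, and nothing is read from the counts against these shares. After rescaling the split was 8 positive and 2 negative. The largest was Egr1 (4.34, SE 0.68, limma adjusted p = 0.0103), followed among the genes named by the rule by Ccn1 (2.41, SE 0.53, limma adjusted p = 0.0280), Dstn (1.12, SE 0.23, limma adjusted p = 0.0258), Elk4 (0.99), Lcp1 (0.97), Myl12a (0.92) and Myl12b (-0.63). With WT saline replicates 2 and 3 averaged, 1 call was left, that of Egr1, against 28 of 11535 over all genes. The other 6 named genes then had an adjusted p of 0.0936 to 0.121. Without WT saline replicate 2 they had 0.0860 to 0.123, and without WT saline replicate 3 they had 0.0952 to 0.120. A single call was likewise left without KO saline replicate 1, without KO saline replicate 2 and without KO ConA replicate 4, against 20 without WT ConA replicate 2.

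Among the listed genes with a promoter window, a CArG box was found in 4 of 24 contractile and cytoskeletal targets (Cnn2, Fhl2, Lima1 and Myl9), in 1 of 31 turnover genes (Arpc4) and in 1 of 22 crosslinking and adhesion genes (Fermt2). None of the 5 cofactor and 5 immediate early windows held one. One window per gene was used here, and 1.57% of 27025 genes held a box.

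The genes whose levels over the 14 mice were nearest to those of Actg1 were Klf6, Tiparp, Egln3, Slc2a1 and Maff. Likeness was the root mean square difference of the centred log2(TPM + 1) values among 7217 genes with a mean of 5 TPM or more, and it was 0.413, 0.461, 0.506, 0.517 and 0.523. Of the other 9 genes described here, Tpm4 was nearest to Actg1, at 0.787. Klf6, a zinc finger transcription factor, had 2.34 to 3.13 TPM in WT and 2.22 to 2.60 in KO in saline, and after ConA 12.2 to 29.5 in WT and 45.7 to 69.7 in KO. For Acta2 the nearest genes were Aqp1 (0.419), Cryab (0.424), Bgn (0.427), Gsn (0.436) and Ifi30 (0.438), with Tagln at 0.534. Bgn, a proteoglycan of the matrix, had 9.98 to 24.4 TPM in WT and 25.9 to 51.3 in KO in saline, and after ConA 9.30 to 21.8 in WT and 12.8 to 31.3 in KO.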

How the data were processed

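RNA was extracted from whole liver of 14 mice and sequenced by the authors on a BGISEQ-500, with 50 bases read from 1 end. The deposited values are TPM, 1 table per mouse with 17656 genes. The submitters' processing notes name Bowtie2, RSEM 1.3.1 and GRCm38.p6, whereas the study's methods name STAR and HTSeq, and which of them made the TPM is not given in the sources used here. TPM keeps no depth, so precision rests on the number of mice.

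Groups were taken from the sample labels. limma 3.58.1 in R 4.3.3 (lmFit, eBayes with trend) was fitted to log2(TPM + 1) over all genes that reached a TPM of 1 in a number of libraries no lower than the size of the smaller group. p-values were adjusted by Benjamini-Hochberg over all genes tested, and a gene was called at an adjusted p under 0.05. The script was tested on simulated data. Other settings tried were no filter or a filter at 5 TPM, a pseudocount of 0.1, median-ratio rescaling, 1 fit of all 14 libraries, a replicate block, averaging of WT saline replicates 2 and 3, and leaving out each library. The spread was pooled over the groups in every fit, also where a group kept 2 mice.

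The 10 genes, the other gene lists and the marker lists were chosen with earlier results of these data known. Named beyond the 10 genes are, per list and comparison, up to 2 called rises and 1 called fall (1 of each between genotypes and in the interaction) with the largest change among genes whose groups did not overlap, and the 5 genes most like Actg1 and Acta2. Sequences came from RefSeq promoters of GRCm38.p6, and shared stretches from GENCODE vM21 transcripts. No other column was used. The counts of 1 gene list are not reported here.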

Additional observations from a re-analysis of the deposited data

Results flagged for a closer look

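In 40 groups of 4 mice tested for an outlying value (the 10 genes, the share of Actg1 and the marker sums in both ConA groups), 5 had a mouse whose gap to its neighbour, divided by the range of the group, exceeded Dixon's 95% critical value for 4 values. Chance gives about 1 in 20 such groups. For Tpm4 in WT ConA the ratio was 0.839, with replicate 3 low at 22.9 TPM. For Vcl in KO ConA it was 0.892, with replicate 3 low at 7.88 TPM. Both libraries had low factors in the median-ratio rescaling, 0.815 for WT ConA replicate 3 and 0.846 for KO ConA replicate 3. The other libraries had 0.945 to 1.16. The ratios are of TPM before rescaling, and whether these mice stay outlying after it was not tested. Among the marker sums the ratio was 0.928 for Kupffer cells and 0.952 for endothelial cells in WT ConA. It was 0.856 for stellate cells and fibroblasts in KO ConA, where replicate 4 was low at 56.8 TPM.

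The interaction term over all 14 mice was called in the main fit for the 7 genes named for it. The rule for naming required that call, so their number is not a separate result. The log2 response in KO minus that in WT was 4.34 for Egr1, 2.41 for Ccn1, 1.12 for Dstn, 0.99 for Elk4, 0.97 for Lcp1, 0.92 for Myl12a and -0.63 for Myl12b. Of these, Egr1 alone stayed called in every alternative that was run, and its saline mice differed between the genotypes as well.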

How the results depend on the processing

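The 6 WT and 8 KO calls for ConA among the 10 genes stayed within 1.5 times under every alternative. The KO saline against WT saline calls were 3, and became 1 at a filter of 5 TPM, 1 without a filter, 5 after rescaling, 1 in the fit of all 14 libraries, 5 with the replicate block and 0 with WT saline replicates 2 and 3 averaged (3 at an unadjusted p under 0.05). Of the other listed genes, 21 were called there, against 13 without a filter, 9 in the fit of all 14 libraries and 2 averaged. The calls over all genes there were 2009 in the main fit. They became 1686 at a filter of 5 TPM, 958 without a filter and 1658 after rescaling. In the fit of all 14 libraries they were 332, with the replicate block 2423 and averaged 49. For KO ConA against WT ConA the 1 call became 0 without a filter and 0 after rescaling (51 and 45 at an unadjusted p), 22 in the fit of all 14 libraries and 6 with the replicate block. Among all genes, the 45 calls became 3, 29, 640 and 140 in these settings. For the interaction the 13 calls became 8 without a filter, 8 with the replicate block and 1 averaged, where the 541 calls over all genes became 345, 358 and 28.

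Leaving out 1 library gave 6 to 8, 8 to 9 and 0 to 4 calls among the 10 genes in WT, KO and saline, and 35 to 66, 66 to 76, 2 to 26, 0 to 2 and 1 to 20 among the other listed genes in the 5 comparisons. The low ends of the saline counts came without WT saline replicate 2 or 3, and the cause was not tested.

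Directions reversed for differences that were not called. Tagln in WT turned from -0.14 to 0.04 with the replicate block, 0.12 without WT saline replicate 1, 0.03 without WT ConA replicate 3 and 0.04 without WT ConA replicate 4, in a range of -0.41 to 0.12 when 1 library was left out. Tagln in KO turned to -0.05 without KO ConA replicate 3 (range -0.05 to 0.56), and Srf in saline to -0.07 without KO saline replicate 3 (range -0.07 to 0.09).

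Mice with the same replicate number did not deviate together in every pair (correlations of -0.256 to 0.488 over 8743 genes). The main fits therefore did not take the numbers as pairs. Between the genotypes these correlations were 0.276, 0.153 and 0.0236 in saline, and -0.0495, 0.197, 0.488 and 0.148 after ConA. With the replicate block, 140 of all genes were called between the ConA groups, against 45 in the main fit. Whether the genotypes shared a replicate effect was not tested. Unknown depth, whole liver tissue and 3 or 4 mice per group limit what can be told.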
